A study of Homo sapiens with 19 samples.

Results

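The BCL2 family decides at the mitochondrial outer membrane whether a damaged cell dies, and 10 of its genes are described here in a neuroblastoma line treated with doxorubicin. They were taken by symbol from the deposited table of read counts: the effectors BAX and BAK1, the BH3-only genes BBC3, PMAIP1, BCL2L11 and BID, and the guardians BCL2, BCL2L1, BCL2L2 and MCL1. All 10 symbols were among the 23367 genes of the table, and all 10 passed the filter on low counts, as did 14793 genes in all. RNA sequencing was done on SHEP TET21N, an established human line that carries a MYCN transgene under control of a tetracycline-responsive promoter, so that doxycycline lowers MYCN. Doxorubicin is an anthracycline that blocks topoisomerase II and breaks DNA. It was given at 0.1 µg/ml for 72 h, then removed.

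The 5 MYCN-high groups, grown without doxycycline, were untreated cells, cells at the end of the 72 h of doxorubicin, and cells 3, 8 and 14 days after its removal. The 5 MYCN-low groups were the same stages in cells kept in doxycycline. Each group had a pair of libraries, B and C, except MYCN-low cells at 14 days, of which replicate B alone was at hand. The fit assumes that this lone library varies like the others. No doxycycline was given to MYCN-high cells and every MYCN-low culture had it, and all treated times were set against 1 untreated group per state, so effects of the antibiotic and of time in culture cannot be told apart from those of MYCN and doxorubicin. The line stands for 1 tumour, and whether B and C were separate cultures is not given in the sources used here beyond their naming as biological replicates. The p-values therefore measure the spread between these libraries.

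Total counts ran from 16547663 to 27664604 per library. MYCN itself stood at 675 and 690 CPM (counts scaled to a common library total) in untreated MYCN-high libraries, against 30.7 and 19.1 CPM in untreated MYCN-low libraries, and every MYCN-high library lay above every MYCN-low library. At 72 h the MYCN-high libraries differed from each other, with 633 CPM in B and 1416 CPM in C. Replicates agreed least in untreated MYCN-low cells, where 2647 genes lay more than 2-fold apart, against 1103 to 1664 in the other pairs. For the 10 members, calls that are lost without 1 of these libraries are given as such below. Of the adrenergic neuroblastoma markers, PHOX2A, TH and DBH were at or near 0 in all 19 libraries while HAND2 was present, and all 8 mesenchymal markers passed the filter. Summed leukocyte markers reached at most 2.85 CPM.

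In mitochondrial apoptosis, BH3-only proteins are the sensors: they are made or activated under stress, occupy the groove of the guardian proteins and can switch on BAX and BAK1. Activated BAX and BAK1 form pores in the outer membrane, cytochrome c leaves the mitochondrion and caspases are activated on APAF1. DNA breaks are known to activate transcription of BBC3 (which encodes PUMA), PMAIP1 (NOXA) and BAX, and MYC proteins are known to make cells more prone to apoptosis. The values below are messenger RNA, while BAX and BAK1 activity and the short-lived MCL1 and NOXA proteins are set largely after transcription. Gene counts also do not separate the splice forms of MCL1, BCL2L1 and BCL2L11. For MCL1 and BCL2L1 the products of the long and short forms can act in opposite ways. Counts average over all cells as well, so fewer cells of a kind and less RNA per cell cannot be told apart.

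The promoters of 3 members are shown because they hold, in the 250 bases before a RefSeq start site (GRCh38.p14), letters that MYC proteins are known to bind. RefSeq promoters were at hand for 8 of the 10 members (13 start sites), those without an entry being MCL1 and BCL2L2. The palindrome CACGTG, the E-box core, was searched in each window, where a match reads alike on both strands. It was found in 6.34% of 35116 promoters of this length at least once, and in 0.0142% of them at least 4 times. BAX lies on the plus strand at chr19:48954625-48954874 with 4 matches, 138, 93, 45 and 14 bases before the start. BBC3 is on the minus strand at chr19:47232668-47232917 with 1 match 232 bases before the start. BID, also on the minus strand, at chr22:17773984-17774233, has 1 match 106 bases before the start of 1 of its 5 start sites. The same CACGTG lies 47 bases before another start site, in the overlapping window chr22:17774043-17774292, and the windows of the rest hold none. No CACGTG was in the windows of BAK1, PMAIP1, BCL2L11, BCL2 or BCL2L1. Sequences run 5′ to 3′ on the strand of the gene, and capitals mark CACGTG.
BAX: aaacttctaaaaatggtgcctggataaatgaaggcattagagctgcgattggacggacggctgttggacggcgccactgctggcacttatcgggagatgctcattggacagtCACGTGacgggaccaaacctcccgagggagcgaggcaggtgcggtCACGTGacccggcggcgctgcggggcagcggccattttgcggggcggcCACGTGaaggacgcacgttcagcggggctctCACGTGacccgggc
BBC3: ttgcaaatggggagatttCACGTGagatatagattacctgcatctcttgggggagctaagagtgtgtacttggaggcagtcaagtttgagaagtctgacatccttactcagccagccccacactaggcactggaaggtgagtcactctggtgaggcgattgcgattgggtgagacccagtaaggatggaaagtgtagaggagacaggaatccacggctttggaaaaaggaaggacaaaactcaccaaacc
BID: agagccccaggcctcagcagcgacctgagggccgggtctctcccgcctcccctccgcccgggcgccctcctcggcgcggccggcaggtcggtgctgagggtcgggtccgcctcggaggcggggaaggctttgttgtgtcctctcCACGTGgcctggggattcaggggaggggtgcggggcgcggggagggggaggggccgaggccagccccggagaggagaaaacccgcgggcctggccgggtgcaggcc
These matches describe letters in a short window. The window covers no first intron and no distant enhancer, and binding was not measured.

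At the end of treatment, 5 of the 10 members had changed in MYCN-high cells, 4 higher and 1 lower, while 36.2% of all tested genes were called. In MYCN-low cells 6 had changed, 4 higher and 2 lower, while 22.3% of all genes were called. BBC3 and BAX rose, BCL2L1 rose and BCL2 fell in both states. PMAIP1 rose in MYCN-high cells, and in MYCN-low cells BCL2L11 rose and BCL2L2 fell. Calls are at an adjusted p under 0.05 from edgeR's quasi-likelihood test with Benjamini-Hochberg adjustment over the 14793 genes. Fold changes are log2 with a standard error, worked back as the absolute log2 value over the square root of the test's F statistic. The median log2 fold change over the members was 0.55 in MYCN-high and 0.30 in MYCN-low cells, against 0.03 and 0.01 over all genes. Scaling by the ERCC spike-in RNAs, whose share differed up to 16.5-fold between replicates, put the median log2 fold change of all genes at up to 2.51 (MYCN-high against MYCN-low cells at 72 h), changed the sign of 50 of 170 member values and called 0 members in every comparison. All values here are therefore relative to the other genes of a library. The count of 5 in MYCN-high cells became 3 without untreated library C, and that of 6 in MYCN-low cells became 3 and 2 without 72 h library B and C.

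At the same 72 h the RNA-quality list, of which RMRP and RPPH1 alone were in the table, also moved: both were higher in MYCN-high cells (5012 to 6361 summed CPM after treatment, against 2521 to 2783 in untreated libraries), and neither passed in MYCN-low cells (2157 to 3597 against 2473 to 5794). At 3 days both were again higher in MYCN-high cells (5165 to 5861 summed CPM, against 2521 to 2783 untreated). Between the states 1 of the 2 was higher in MYCN-high cells at 72 h and 1 at 3 days. The MYCN-high sums stayed above the untreated ones later, with 3961 to 4908 CPM at 8 days and 5076 to 6462 CPM at 14 days. Neither gene passed against untreated cells at these stages, and at 14 days no gene at all did. MYCN-low sums were 2750 to 3063 CPM at 8 days and 3518 CPM in the library at 14 days. The part of RMRP and RPPH1 in the results was not tested.

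**Figure D1:**
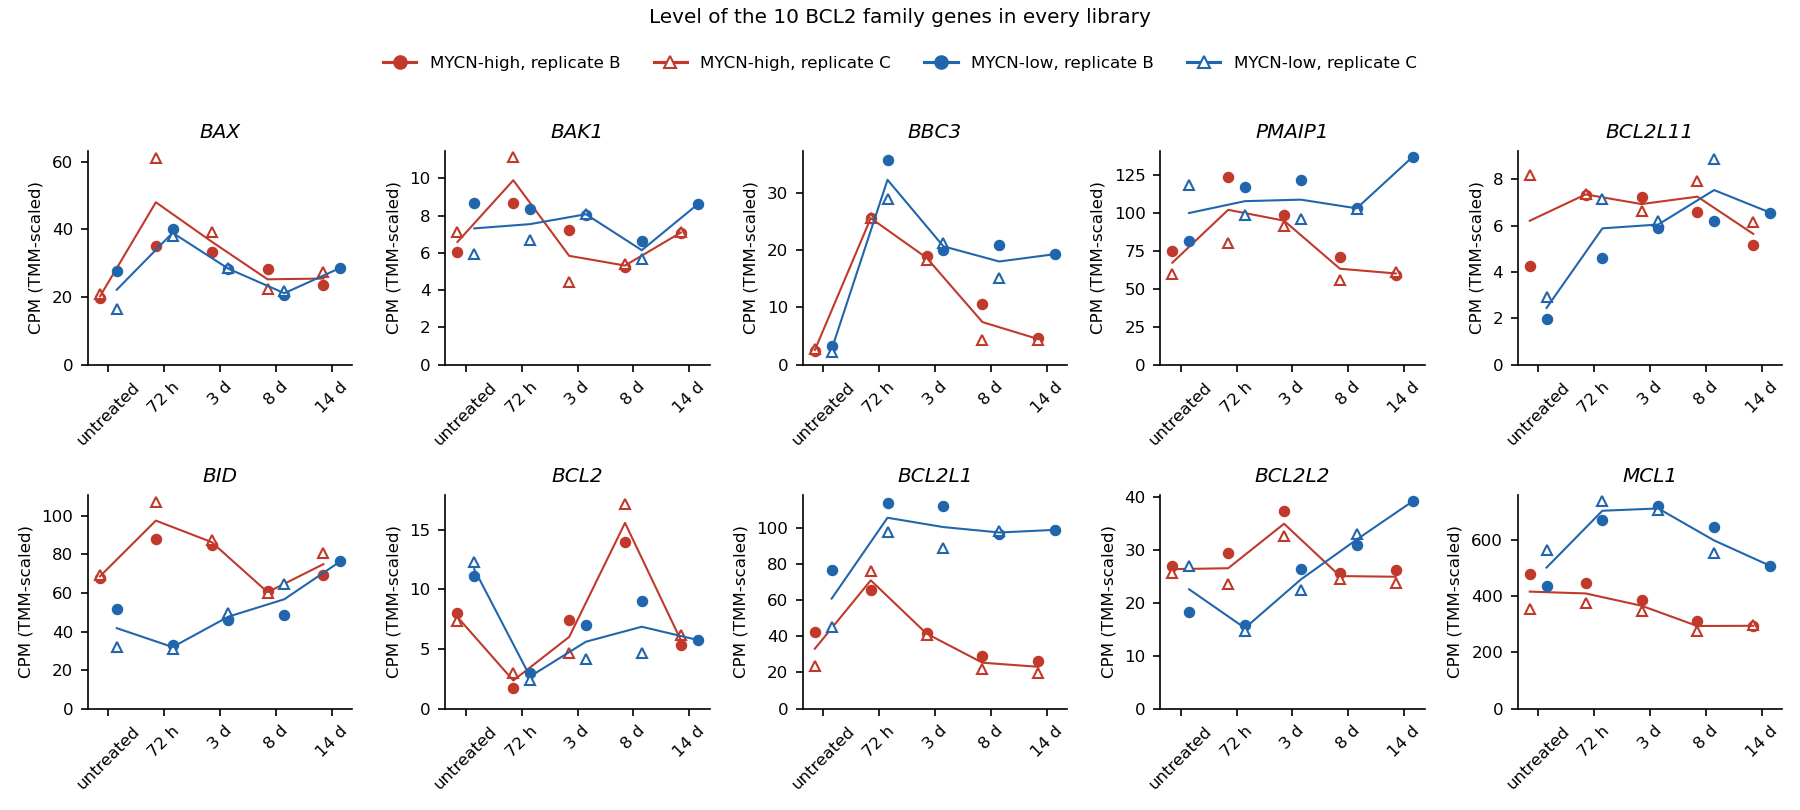
Level of each of the 10 members in every library, as CPM on a linear axis from 0 (y) by stage (x). MYCN-high libraries are drawn left of MYCN-low libraries, circles and triangles are replicates B and C, and lines join the group means. BBC3 stands above both untreated libraries of its state at every treated stage, while BAK1 stays within 4.45 to 11.1 CPM.

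Of the effectors, BAX rose during treatment in both states. In MYCN-high cells the B and C libraries had 19.6 and 20.7 CPM untreated, 35.0 and 61.0 CPM at 72 h, 33.4 and 39.3 CPM at 3 days, 28.2 and 22.2 CPM at 8 days, and 23.4 and 27.4 CPM at 14 days. MYCN-low B and C had 27.8 and 16.4 CPM untreated, 40.0 and 38.0 CPM at 72 h, 28.2 and 28.4 CPM at 3 days, 20.5 and 21.7 CPM at 8 days, and 28.6 CPM in the library at 14 days. All treated MYCN-high libraries thus lay above both untreated ones, by the widest margin at 72 h, while in MYCN-low cells those of 72 h, 3 days and 14 days did, the 3-day and 14-day ones by a small margin. The log2 fold change at 72 h was 1.25 ± 0.26 in MYCN-high cells (edgeR adjusted p = 0.0015) and 0.82 ± 0.26 in MYCN-low cells (adjusted p = 0.033). At 3 days it was 0.85 ± 0.26 in MYCN-high cells (adjusted p = 0.021). Only the first of these calls held with any 1 library left out. The adjusted p in MYCN-low cells at 72 h reached 0.188, and that at 3 days in MYCN-high cells lay between 0.0557 and 0.124 without each library in turn.

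BAK1, the other pore former, was called in no comparison by edgeR or DESeq2, and its only unadjusted p under 0.05 was 0.047, in MYCN-high cells at 72 h. Its MYCN-high libraries held 6.04 and 7.13 CPM untreated, 8.65 and 11.1 CPM at 72 h, 7.23 and 4.45 CPM at 3 days, 5.25 and 5.38 CPM at 8 days, and 7.08 and 7.10 CPM at 14 days. The MYCN-low libraries held 5.65 to 8.68 CPM over all stages. The log2 fold change at 72 h was 0.59 ± 0.27 in MYCN-high cells (edgeR adjusted p = 0.105) and 0.05 ± 0.27 in MYCN-low cells (adjusted p = 0.92). Its highest and lowest group means were 1.86-fold apart, the smallest span of the 10 members. No comparison of MYCN-high with MYCN-low cells called BAX at any stage, by edgeR or DESeq2, and none reached an unadjusted p under 0.05.

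BBC3 encodes PUMA, which can bind every guardian in the family, and it had the largest range of the members, with 12.7-fold between its highest and lowest group means. MYCN-high libraries B and C had 2.34 and 2.78 CPM untreated, 25.7 and 25.6 CPM at 72 h, 19.0 and 18.4 CPM at 3 days, 10.6 and 4.27 CPM at 8 days, and 4.62 and 4.28 CPM at 14 days. The MYCN-low libraries had 3.19 and 2.11 CPM untreated, 35.8 and 29 CPM at 72 h, 20.1 and 21.3 CPM at 3 days, 21 and 15.1 CPM at 8 days, and 19.4 CPM at 14 days. Untreated libraries of the states overlapped. At every treated stage each MYCN-high library was below each MYCN-low library, narrowly at 3 days and widely at 14 days.

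At 72 h the log2 fold change of BBC3 was 3.32 ± 0.35 in MYCN-high cells (edgeR adjusted p = 4.5e-06) and 3.62 ± 0.35 in MYCN-low cells (adjusted p = 1.9e-06). In MYCN-low cells it was 2.98 ± 0.34, 2.78 ± 0.34 and 2.88 ± 0.38 at 3, 8 and 14 days. All were called in each fit with a library left out, but at 14 days those fits left out untreated libraries only. The single MYCN-low library of 14 days could not be left out. In MYCN-high cells it was 2.87 ± 0.34 at 3 days, 1.54 ± 0.34 at 8 days (edgeR adjusted p = 0.012) and 0.80 ± 0.35 at 14 days (adjusted p = 0.56). The call at 8 days was lost without the B library of that stage (adjusted p = 0.231) or either untreated library (0.122 and 0.0574). The response at 14 days differed between the states by -2.08 ± 0.52 on the log2 scale, MYCN-high minus MYCN-low (edgeR adjusted p = 0.026). That difference rests on the single MYCN-low library of the stage, and it missed the threshold in 4 of the 6 fits that left out a library, with adjusted p up to 0.0759.

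PMAIP1 encodes NOXA, which binds MCL1 and favours its degradation. Libraries B and C of MYCN-high cells had 74.8 and 59.7 CPM untreated, 124 and 80.3 CPM at 72 h, 98.6 and 91.5 CPM at 3 days, 71.0 and 55.5 CPM at 8 days, and 59.4 and 60.9 CPM at 14 days. Their MYCN-low counterparts had 81.4 and 119 CPM untreated, 117 and 98.9 CPM at 72 h, 122 and 96.1 CPM at 3 days, 104 and 103 CPM at 8 days, and 137 CPM at 14 days. The MYCN-low stages overlapped one another up to 8 days, and every MYCN-high library was below every MYCN-low library when untreated and at 8 and 14 days. The rise at 72 h in MYCN-high cells was 0.60 ± 0.23 (edgeR adjusted p = 0.047), and it was not called without the B library of 72 h (adjusted p = 0.443) or untreated library C (0.269) or B (0.0537). Between the states, PMAIP1 was lower in MYCN-high cells by a log2 difference of -0.70 ± 0.23 at 8 days (adjusted p = 0.019) and -1.19 ± 0.27 at 14 days (adjusted p = 0.0023). Without MYCN-high library C, the 8-day call was lost (log2 difference -0.54), and under ERCC scaling the 8-day value was 0.15. The 14-day difference rests on the single MYCN-low library of that stage, which could not be left out.

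BCL2L11 encodes BIM, a BH3-only protein that can activate BAX directly. Untreated MYCN-high libraries had 4.24 and 8.19 CPM, against 1.98 and 2.91 CPM in untreated MYCN-low libraries. All treated libraries of both states were at 4.63 to 8.89 CPM, so the untreated MYCN-low pair stood below every other library. In MYCN-low cells BCL2L11 rose by a log2 fold change of 1.26 ± 0.34 at 72 h, 1.29 ± 0.34 at 3 days, 1.62 ± 0.34 at 8 days and 1.41 ± 0.40 at 14 days (edgeR adjusted p = 0.016, 0.013, 0.0031 and 0.023). The 14-day value rests on the single MYCN-low library of that stage. In MYCN-high cells the log2 fold changes of BCL2L11 lay between -0.14 and 0.24, none of them called. Untreated cells differed by 1.33 ± 0.34 between MYCN-high and MYCN-low (adjusted p = 0.0072). That call was lost in fits without 1 untreated library (adjusted p up to 0.16). Of the 4 MYCN-low calls, the one at 8 days held in every fit with a library left out, and the others reached 0.155, 0.0908 and 0.0966. The differences between the responses, from -1.01 to -1.55, were not called by edgeR, with the lowest adjusted p of 0.081 at 14 days, while DESeq2 called those at 8 and 14 days (adjusted p = 0.0325 and 0.0382).

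BID links death receptors to the mitochondrial pathway, its protein being cut by caspases into an active form. The B and C libraries of MYCN-high cells held 67.8 and 69.5 CPM untreated, 88.1 and 107 CPM at 72 h, 85.2 and 87.7 CPM at 3 days, 61.1 and 59.8 CPM at 8 days, and 69.4 and 80.6 CPM at 14 days. MYCN-low cells showed 51.5 and 32.0 CPM untreated, 33.1 and 30.9 CPM at 72 h, 46.0 and 49.5 CPM at 3 days, 48.7 and 64.9 CPM at 8 days, and 76.4 CPM at 14 days. The states did not overlap up to 3 days and overlapped at 8 and 14 days. BID was higher in MYCN-high cells by a log2 difference of 0.72 ± 0.20 untreated, 1.61 ± 0.21 at 72 h and 0.86 ± 0.20 at 3 days (edgeR adjusted p = 0.013, 5.1e-05 and 0.0045). At 8 and 14 days it was 0.09 ± 0.20 and -0.03 ± 0.25. The 72 h difference held with any library left out, while the untreated one reached an adjusted p of 0.088 and the 3-day one 0.0501. Within MYCN-low cells BID rose at 14 days by 0.87 ± 0.24 (edgeR adjusted p = 0.021). This rise rests on the single library of that stage, which could not be left out.

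Among the guardians, BCL2 fell during treatment in both states. In MYCN-high cells B and C had 8.04 and 7.31 CPM untreated, 1.70 and 3.01 CPM at 72 h, 7.39 and 4.63 CPM at 3 days, 14.0 and 17.1 CPM at 8 days, and 5.33 and 6.14 CPM at 14 days. The libraries of MYCN-low cells had 11.1 and 12.3 CPM untreated, 2.97 and 2.41 CPM at 72 h, 7.01 and 4.20 CPM at 3 days, 9.04 and 4.69 CPM at 8 days, and 5.75 CPM at 14 days. The 72 h libraries were the lowest of each state, and at 8 days the MYCN-high pair lay above all other libraries of the study.

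The log2 fold change of BCL2 at 72 h was -1.71 ± 0.38 in MYCN-high cells (edgeR adjusted p = 0.0023) and -2.12 ± 0.37 in MYCN-low cells (adjusted p = 0.00077), and both calls held with each library left out. At 3 days it was -0.35 ± 0.36 in MYCN-high cells, not called, and -1.06 ± 0.36 in MYCN-low cells (adjusted p = 0.042), where leaving out a library raised the adjusted p to as much as 0.265. At 8 days it was 1.02 ± 0.35 in MYCN-high cells (adjusted p = 0.085) and -0.78 ± 0.35 in MYCN-low cells (adjusted p = 0.118). The response at 8 days differed between the states by 1.80 ± 0.50, MYCN-high minus MYCN-low (edgeR adjusted p = 0.043), a call lost in 6 of 8 fits with a library left out (adjusted p up to 0.161). Scaled by the ERCC spike-in RNAs, the 72 h value in MYCN-high cells was 0.19.

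BCL2L1 encodes BCL-XL. In MYCN-high cells B and C had 42.5 and 23.7 CPM untreated, 65.6 and 76.2 CPM at 72 h, 42.0 and 40.9 CPM at 3 days, 29.1 and 21.7 CPM at 8 days, and 26.6 and 19.6 CPM at 14 days. MYCN-low libraries held 76.5 and 45 CPM untreated, 113 and 97.6 CPM at 72 h, 112 and 88.8 CPM at 3 days, 96.8 and 98.0 CPM at 8 days, and 98.8 CPM at 14 days. In MYCN-high cells the 72 h pair alone stood above both untreated libraries, whereas every treated MYCN-low library stood above both of its untreated ones. At each of the 5 stages both MYCN-high libraries were below the MYCN-low ones.

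At 72 h BCL2L1 rose by a log2 fold change of 1.10 ± 0.28 in MYCN-high cells (edgeR adjusted p = 0.0058) and 0.80 ± 0.27 in MYCN-low cells (adjusted p = 0.048). Without untreated library C the MYCN-high call was lost (adjusted p = 0.0942), and the MYCN-low call was lost with adjusted p up to 0.257. From 3 to 14 days the values were 0.68 to 0.72 in MYCN-low cells, not called in the main edgeR fit or with DESeq2's size factors. Without the filter on low counts they were called at 3, 8 and 14 days, and with the replicate block at 3 and 8 days. DESeq2 called the 3-day value (adjusted p = 0.0481) but not those at 8 and 14 days. Between the states the log2 difference was -0.87 ± 0.28 untreated, -0.57 ± 0.27 at 72 h, -1.28 ± 0.28 at 3 days, -1.94 ± 0.28 at 8 days and -2.10 ± 0.32 at 14 days. All but the value at 72 h were called (edgeR adjusted p = 0.128 there, 6.4e-05 at 8 days and 0.00013 at 14 days). The calls from 3 days on held with each library left out, save the single MYCN-low one of 14 days, which could not be. The untreated call was lost without MYCN-low library B (log2 difference -0.44) or MYCN-high library C (-0.54). Under ERCC scaling the untreated and 3-day values were 0.17 and 0.45, not called.

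BCL2L2 encodes BCL-W. MYCN-high libraries had 23.6 to 37.3 CPM over all stages, and no treated stage was called against untreated cells. In MYCN-low cells B and C had 18.2 and 26.8 CPM untreated, 15.7 and 14.7 CPM at 72 h, 26.3 and 22.4 CPM at 3 days, 30.9 and 32.9 CPM at 8 days, and 39.1 CPM at 14 days. The lowest MYCN-low libraries were those of 72 h and the highest that of 14 days, with log2 fold changes of -0.57 ± 0.19 (edgeR adjusted p = 0.047) and 0.79 ± 0.23 (adjusted p = 0.026). Both were lost with a library left out, at adjusted p up to 0.284 and 0.106. The difference between MYCN-high and MYCN-low cells was 0.80 ± 0.19 at 72 h (adjusted p = 0.0058) and -0.65 ± 0.23 at 14 days (adjusted p = 0.032). Without MYCN-high library B of 72 h and C of 14 days these reached 0.0528 and 0.0945. Both values at 14 days rest on the single MYCN-low library of that stage. BCL2L2 overlaps the read-through gene BCL2L2-PABPN1 on its own strand, so its counts are uncertain.

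MCL1 was the most abundant member per length of annotated exon. In MYCN-high cells B and C had 478 and 355 CPM untreated, 445 and 374 CPM at 72 h, 385 and 347 CPM at 3 days, 311 and 277 CPM at 8 days, and 293 and 297 CPM at 14 days. For MYCN-low cells the values were 438 and 566 CPM untreated, 671 and 738 CPM at 72 h, 719 and 705 CPM at 3 days, 645 and 552 CPM at 8 days, and 508 CPM at 14 days. Untreated libraries of the states overlapped, and at all treated stages the MYCN-high libraries lay below the MYCN-low ones. No comparison with untreated cells called MCL1 in the edgeR fit of all libraries with TMM scaling, while 4 had an unadjusted p under 0.05 and DESeq2 called 3. Those closest to the threshold were MYCN-low cells at 72 h and 3 days, with 0.49 ± 0.18 and 0.50 ± 0.18 (edgeR adjusted p = 0.063 and 0.054). Without untreated MYCN-low library C these were called (adjusted p = 0.0203 and 0.0169), and with DESeq2's size factors in edgeR the 3-day value was too (0.0428). Between the states the log2 difference was -0.27 ± 0.18 untreated (edgeR adjusted p = 0.262), -0.78 ± 0.18 at 72 h (0.0041), -0.96 ± 0.18 at 3 days (0.00081), -1.03 ± 0.18 at 8 days (0.00031) and -0.79 ± 0.21 at 14 days (0.0082). The calls from 3 days on held with each library left out, save the single MYCN-low one of 14 days, which could not be. The call at 72 h was lost without MYCN-high library C of 72 h (log2 difference -0.67). ERCC scaling turned the value at 72 h to 1.84 and that at 3 days to 0.88, neither called.

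**Figure D2:**
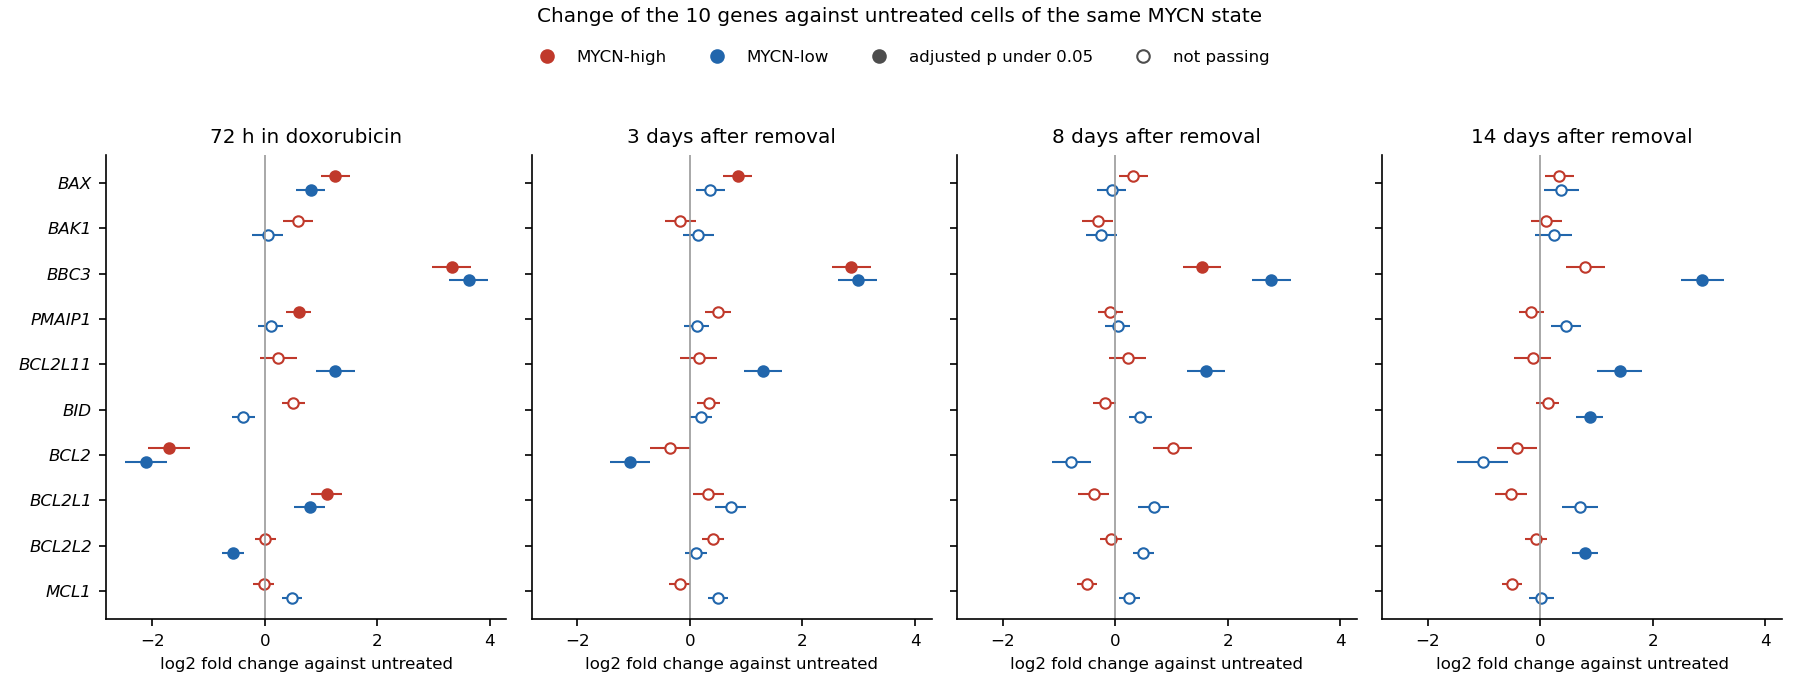
Log2 fold change against untreated cells of the same state (x) for each member (rows), in 1 panel per treated stage, with MYCN-high cells above MYCN-low cells. Bars are standard errors worked back from the F statistic of the edgeR test, and filled points passed an adjusted p of 0.05. BBC3 is far to the right in both states at 72 h, and at 14 days in MYCN-low cells alone.

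After the drug was removed, BAX and BBC3 were the 2 of 10 members called against untreated MYCN-high cells at 3 days (30.8% of all genes called). BBC3 was the 1 called at 8 days (8.58% of all genes), where DESeq2 called 2, and 0 were called at 14 days, where 0 of all 14793 genes were called. At an unadjusted p under 0.05, 2 members passed at 14 days, BBC3 and MCL1, and DESeq2 called 0. In MYCN-low cells 3 members were called at 3 days (23.2% of all genes), 2 at 8 days (24.9%) and 4 at 14 days (18.4%). Those at 14 days were BBC3, BCL2L11, BID and BCL2L2, all higher. Counts of 1 to 3 among 10 members lie close to these shares of all genes. Leaving out a library moved several of them. In MYCN-high cells BBC3 alone was called at 3 days without any 1 library, and 0 members at 8 days without untreated library B or C or 8-day library B. In MYCN-low cells the count was 1 at 3 days without library C of that stage, and 4 at 8 days without untreated library B.

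Whether the states responded differently was tested directly. At 72 h and at 3 days the test called 0 of the 10 members, while 10.7% and 7.58% of all genes were called. At an unadjusted p under 0.05, 2 members passed at 72 h and 2 at 3 days, and DESeq2 called 1 at each. At 8 days BCL2 was the 1 member called (6.35% of all genes), and at 14 days BBC3 was (7.41%). Leaving out untreated MYCN-low library C gave 1 member at 72 h, 1 at 3 days, 4 at 8 days and 3 at 14 days, and leaving out untreated MYCN-low library B gave 2 at 8 days and 3 at 14 days. Without MYCN-high library B of 72 h, 1 was called at 72 h. None was called at 8 days without untreated MYCN-high library B or C, MYCN-high library C or MYCN-low library C of 8 days, nor at 14 days without untreated MYCN-high library B or either MYCN-high library of 14 days. A difference short of the threshold does not show equal responses: for BID at 72 h it was 0.89 ± 0.29 (edgeR adjusted p = 0.058), and for BCL2L1 at 14 days -1.22 ± 0.43 (adjusted p = 0.095).

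**Figure D3:**
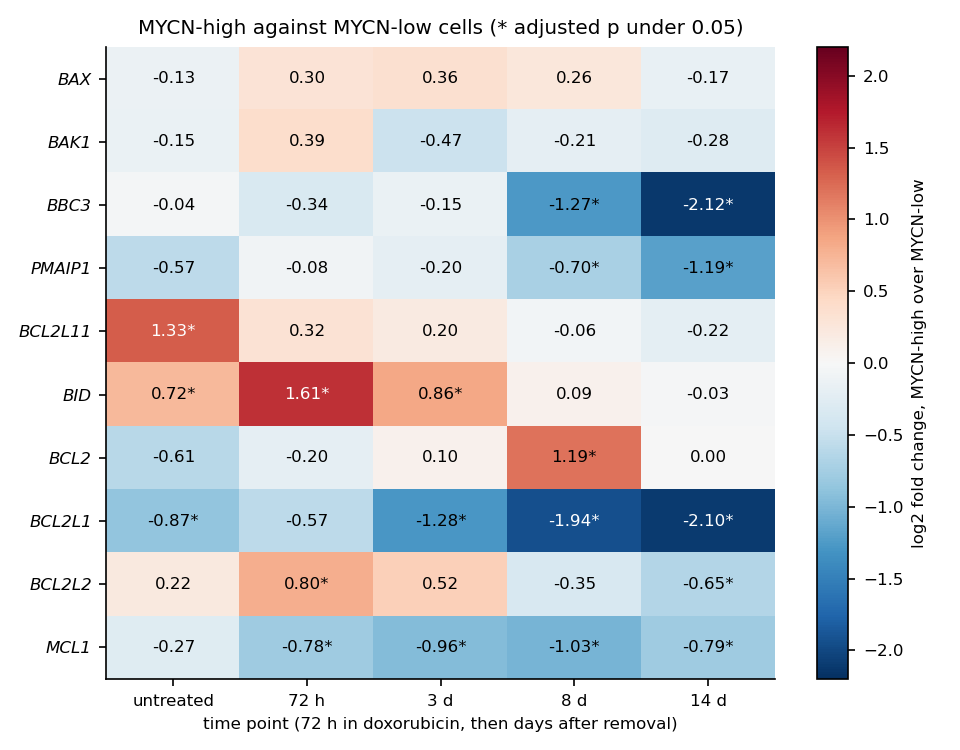
Log2 difference of MYCN-high minus MYCN-low cells (colour and printed value) for each member (rows) at each stage (columns), with an asterisk at an edgeR adjusted p under 0.05. BCL2L1 and MCL1 are negative at every stage and reach -2.10 and -1.03 (ERCC scaling turns both to positive in untreated cells, at 72 h and at 3 days), BID is positive up to 3 days, and BAX and BAK1 carry no asterisk.

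Comparing the states stage by stage, the untreated comparison called 3 members, of which BCL2L11 and BID were higher and BCL2L1 lower in MYCN-high cells, while 35.1% of all genes were called. The 3 at 72 h were BID and BCL2L2, higher, and MCL1, lower (29.9% of all genes). The 3 at 3 days were BID, higher, and BCL2L1 and MCL1, lower (31.8%). Of the 5 at 8 days BCL2 was higher, and BBC3, PMAIP1, BCL2L1 and MCL1 were lower (43.9%). All 5 at 14 days were lower (41.8%). The 5 at 14 days were BBC3, PMAIP1, BCL2L1, BCL2L2 and MCL1, with BBC3 lower in MYCN-high cells by a log2 difference of -2.12 ± 0.37 (edgeR adjusted p = 0.00038). At 8 days BBC3 differed by -1.27 ± 0.32 (adjusted p = 0.0041) and BCL2 by 1.19 ± 0.35 (adjusted p = 0.013). Without MYCN-high library C of 8 days the BBC3 call was lost at 0.0514, and the BCL2 call was lost in fits reaching 0.166. Without untreated MYCN-high library C 0 members were called in untreated cells, and without MYCN-high library C of 8 days 2 were called at 8 days. The lower genes at 14 days thus included 2 BH3-only genes, BBC3 and PMAIP1, and 3 of 4 guardians, all against a single MYCN-low library. Markers of the mesenchymal kind of neuroblastoma cell were also lower in MYCN-high cells: 4 of 8 were called untreated, 3 at 72 h, 3 at 3 days, 7 at 8 days (median log2 difference -1.17) and 6 at 14 days (median -1.47), with 0 higher at any stage. Their summed level was 1875 to 3212 CPM in MYCN-high libraries, against 4699 to 14871 CPM in MYCN-low libraries. FN1 alone ran from 60.7 to 10962 CPM over all libraries, while VIM, with the next highest peak, reached 2655 CPM. The part of these markers in the results was not tested. The states share no libraries, but the stages of a state share its untreated pair, so their comparisons with untreated cells are not independent.

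Levels can be compared between genes only per length, here CPM per kilobase of annotated exon. The exons of all annotated transcripts of a gene were merged, so this length can exceed that of any single transcript. On that scale MCL1 had group means of 67.2 to 163, PMAIP1 26.9 to 61.4, BCL2L1 6.97 to 31.8, BID 7.19 to 22, BAX 7.79 to 18.6, BCL2L2 3.63 to 9.34, BBC3 0.80 to 10.2, BAK1 2.4 to 4.48, BCL2L11 0.37 to 1.13 and BCL2 0.20 to 1.32 CPM per kilobase. MCL1 alone made up 40.3% to 60.1% of the summed level of the 10 members in a library, and PMAIP1, whose product binds it, 15.7% to 24.1%. BCL2, the founding member, was thus the rarest guardian in these cells.

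The balance was described as the share of the summed per-length level held by the 6 pro-apoptotic members, BAX, BAK1, BBC3, PMAIP1, BCL2L11 and BID. In MYCN-high cells B and C had shares of 31.8% and 37.0% untreated, 44.2% and 46.1% at 72 h, 43.9% and 45.9% at 3 days, 42.0% and 40.2% at 8 days, and 41.0% and 43.5% at 14 days. The MYCN-low pairs had 33.2% and 31.9% untreated, 32.2% and 28.1% at 72 h, 29.7% and 28.3% at 3 days, 29.1% and 32.1% at 8 days, and 39.2% at 14 days. Every treated MYCN-high library was above both untreated ones. The MYCN-low libraries at 3 days were below the untreated pair and the single one at 14 days was above it. At each treated stage the MYCN-high libraries were above the MYCN-low ones, while untreated libraries overlapped. The share is dominated by MCL1 and PMAIP1 and carries no test.

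**Figure D4:**
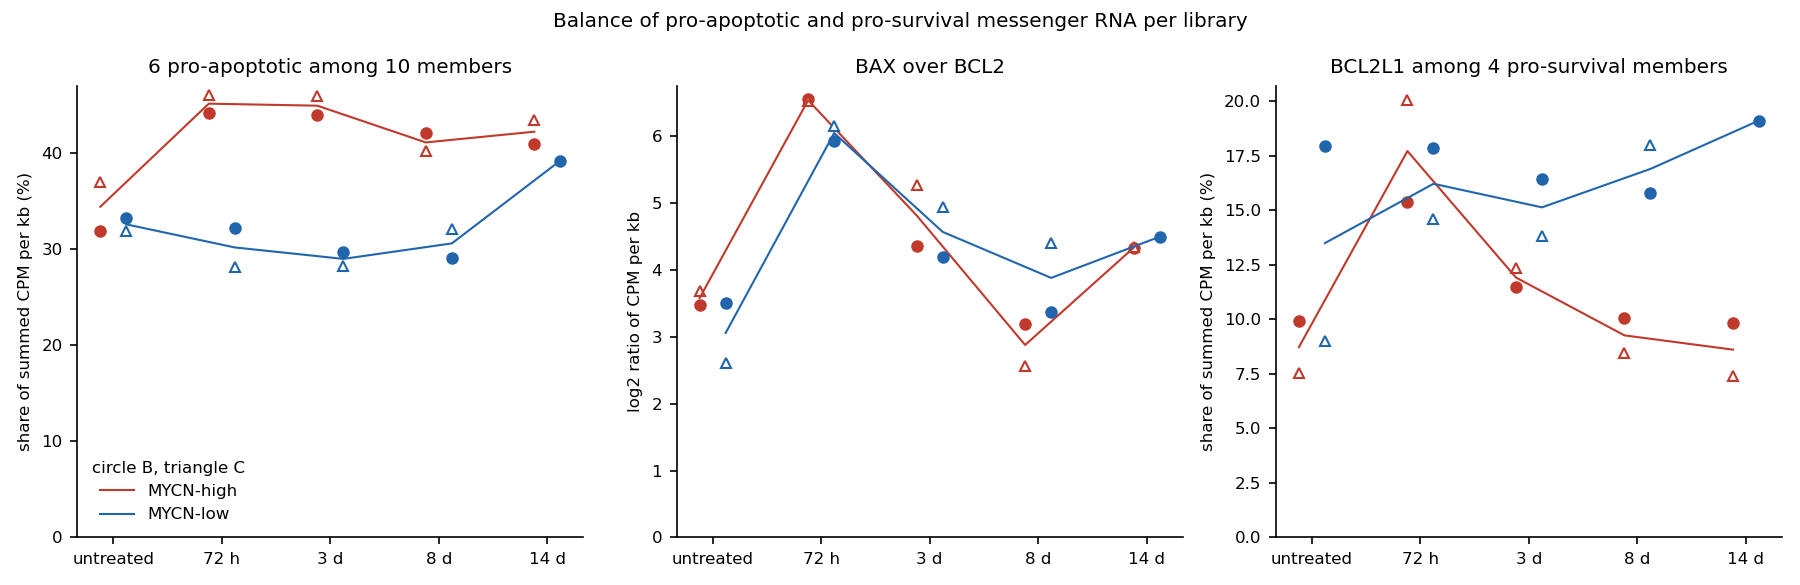
Share of the 6 pro-apoptotic members in the summed CPM per kilobase of the 10 members (percent, y of the first panel) log2 ratio of BAX to BCL2 CPM per kilobase (y of the second panel) and share of BCL2L1 among the 4 guardians (percent, y of the third panel), by stage (x), MYCN-high left of MYCN-low. Circles and triangles are replicates B and C, and lines join the group means. The share is 40.2% to 46.1% in treated MYCN-high libraries and 28.1% to 39.2% in treated MYCN-low ones, and the ratio peaks at 72 h in both. In the third panel the states are farthest apart at 14 days.

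Another description, chosen after the values were seen, is the ratio of BAX to BCL2, an effector over the classic guardian. Its log2 value per length in MYCN-high cells was 3.47 and 3.69 untreated, 6.55 and 6.52 at 72 h, 4.36 and 5.27 at 3 days, 3.20 and 2.56 at 8 days, and 4.32 and 4.34 at 14 days. In MYCN-low cells it was 3.51 and 2.60 untreated, 5.94 and 6.16 at 72 h, 4.19 and 4.94 at 3 days, 3.37 and 4.40 at 8 days, and 4.5 at 14 days. Both states had their highest ratios at 72 h, clear of every other stage. Among the 4 guardians alone, BCL2L1 held 9.92% and 7.54% untreated, 15.4% and 20.1% at 72 h, 11.5% and 12.4% at 3 days, 10.1% and 8.47% at 8 days, and 9.81% and 7.41% at 14 days of the summed per-length level in MYCN-high cells. Its share in MYCN-low cells was 18% and 9.03% untreated, 17.9% and 14.6% at 72 h, 16.5% and 13.8% at 3 days, 15.8% and 18% at 8 days, and 19.1% at 14 days. The states overlapped on this measure when untreated and at 72 h, and from 3 days on MYCN-high libraries were below MYCN-low ones.

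Further genes of the pathway were read from lists by role. Of 8 tested relatives in the BCL2 family, 2 were higher and 2 lower at 72 h in MYCN-high cells (36.2% of all genes called), and likewise 2 and 2 in MYCN-low cells (22.3%). BNIP3L, a mitophagy receptor of the outer membrane, rose by 1.25 ± 0.18 in MYCN-high and 1.39 ± 0.18 in MYCN-low cells. BCL2L12 fell, with log2 fold changes of -2.11 ± 0.28 and -2.30 ± 0.29 (edgeR adjusted p = 3.8e-05 and 3.2e-05). At 14 days BNIP3L was lower in MYCN-high cells by a log2 difference of -2.51 ± 0.21, with 55.3 and 67.0 CPM in MYCN-high libraries, against 348 CPM in the MYCN-low library. BNIP3, its close relative, differed in response at 14 days by -1.54 ± 0.24, a value that rests on the same single MYCN-low library.

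For the counts at 72 h that follow, 36.2% of all genes were called in MYCN-high and 22.3% in MYCN-low cells. Downstream of the pore, 2 of 10 tested apoptosome and caspase genes were higher and 5 lower at 72 h in MYCN-high cells. CASP2 fell by 0.85 ± 0.20 and CYCS, the gene of cytochrome c, by 0.95 ± 0.28, while CASP9, the caspase activated on APAF1, rose by 0.99 ± 0.33 (edgeR adjusted p = 0.0032, 0.017 and 0.03). In MYCN-low cells 1 of the 10 was called at 72 h, CASP2, with a log2 fold change of -0.76 ± 0.20. The list's median log2 fold change was -0.50 in MYCN-high and -0.0032 in MYCN-low cells, against 0.03 and 0.01 over all genes. CYCS was higher in untreated MYCN-high than in untreated MYCN-low cells by 1.57 ± 0.29 (adjusted p = 0.0008).

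Of 10 tested inhibitors of apoptosis and their antagonists, 2 were higher and 2 lower at 72 h in MYCN-high cells, and 0 higher and 2 lower in MYCN-low cells. BIRC5, which encodes survivin and is expressed mainly in dividing cells, had 5.94 and 39.2 CPM at 72 h against 428 and 445 CPM untreated in MYCN-high cells. In MYCN-low cells it had 0.925 and 0.435 CPM at 72 h against 348 and 334 CPM untreated. Its log2 fold changes were -4.28 ± 0.57 and -8.96 ± 0.76, and they differed by 4.68 ± 0.87 (edgeR adjusted p = 0.0061). XIAP, a direct caspase inhibitor, was lower in MYCN-high cells at 14 days by a log2 difference of -1.48 ± 0.18, against the single MYCN-low library of that stage.

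Of 9 tested genes of the outer membrane and of mitochondrial fission, 5 were higher and 1 lower in untreated MYCN-high cells, where 35.1% of all genes were called. Those higher included VDAC1, a channel of the outer membrane, by 0.89 ± 0.16 and PPIF, which encodes cyclophilin D of the permeability transition pore, by 0.98 ± 0.19 (edgeR adjusted p = 0.00075 and 0.0011). At 72 h 4 were higher (29.9% of all genes called) and at 3 days 3 were (31.8%), and PPIF at 72 h differed by 1.86 ± 0.19. Of the 4 tested genes of MCL1 turnover, 1 was higher at 72 h in MYCN-high cells and 2 in MYCN-low cells, where FBXW7, part of a ubiquitin ligase for MCL1, rose by 1.11 ± 0.26 (adjusted p = 0.0059).

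Among 9 tested upstream factors, 1 was higher and 2 lower at 72 h in MYCN-high cells, and the same numbers held in MYCN-low cells. DDIT3, an endoplasmic reticulum stress factor known to activate BCL2L11, rose by 1.61 ± 0.37 in MYCN-low cells (adjusted p = 0.0055). MYC had 0.585 and 0.278 CPM in untreated MYCN-high libraries, against 16.2 and 13.1 CPM in untreated MYCN-low libraries, a log2 difference of -5.07 ± 0.49.

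Finally, the genes whose group means followed each member most closely were listed by Pearson's r of log2 CPM over the 10 groups, among 10426 genes of at least 5 CPM, as a description. The groups differ in treatment stage and MYCN state, and any gene of a like course over them scores high. BBC3 was followed by EDA2R (r = 0.987) and RRM2B (r = 0.985). MCL1 was followed by DSTYK (r = 0.993) and RBMS2 (r = 0.99), PMAIP1 by LIF and CD109 (r = 0.989 each), and BCL2L1 by TMEM2 and RNF11 (r = 0.984 each). BAX was followed by TUSC2 (r = 0.963), BCL2L11 by C7orf63 (r = 0.95), BID by UCHL1 (r = 0.922), BCL2 by CBX5 (r = 0.919), BCL2L2 by CA12 (r = 0.895) and BAK1 by CLDN12 (r = 0.851). Between members the highest values were 0.926 for BCL2L1 with PMAIP1 and 0.908 for BCL2L1 with MCL1, a BH3-only gene and a guardian each moving with BCL2L1.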

How the data were processed

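RNA was sequenced in 19 libraries, grouped by the labels. The deposited table holds raw read counts per gene symbol, for which the submitters' processing notes name STAR 2.4.0h1, HTSeq and hg19. Per the labels' protocols, ribosomal RNA was removed and libraries were made with a ScriptSeq kit after ERCC RNAs had been added, while the molecule field says polyA RNA. Annotation and strand setting are not given in the sources used here, so members that overlap other genes (BAK1, BBC3, BCL2L11, BID, BCL2, BCL2L1, BCL2L2 and MCL1) are uncertain.

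From these counts, 92 ERCC features were set aside and genes were kept by filterByExpr. Libraries were scaled by TMM, and 1 coefficient per group was fitted with edgeR 4.0.16 in R 4.3.3 (quasi-likelihood, Benjamini-Hochberg over all 14793 tested genes, threshold 0.05, 9 residual degrees of freedom among the libraries). CPM are TMM-scaled, and exon lengths come from GENCODE 29 by symbol, with the exons of all transcripts merged. Alternatives were DESeq2 1.42.0 and its size factors, no filter on low counts, ERCC scaling, the replicate letter as a block, and leaving out each library. The single MYCN-low library of 14 days was the exception, since its comparisons cannot be made without it. The fit was tested on simulated data. Of other lists, genes named are up to 4 past the threshold by smallest p, and 6 listed symbols without a row were not analysed here. The members, lists and tests were chosen with earlier results of these data known. Depth limits rare genes, and counting intervals were not computed. Results on some genes are not reported here.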

Additional observations from a re-analysis of the deposited data

Results flagged for a closer look

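The test of the difference between the states' responses called 1 member at 8 days and 1 at 14 days, while 6.35% and 7.41% of all genes were called. DESeq2 called 4 at each. For BCL2 at 8 days the log2 difference of responses, MYCN-high minus MYCN-low, was 1.80 ± 0.50 (edgeR adjusted p = 0.043), with 14.0 and 17.1 CPM in MYCN-high libraries at 8 days and 9.04 and 4.69 CPM in MYCN-low ones. It was lost in 6 of 8 fits with a library left out and with DESeq2's size factors in edgeR. For BBC3 at 14 days it was -2.08 ± 0.52 (edgeR adjusted p = 0.026), with 4.62 and 4.28 CPM in MYCN-high libraries and 19.4 CPM in the single MYCN-low library. It was lost in 4 of 6 such fits. No group held enough libraries for a check on outlying samples.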

How the results depend on the processing

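Of 170 member values, DESeq2 kept 156 on their side of the threshold and added 14 calls, its size factors kept 166, and analysis without the filter kept 155. ERCC scaling called 0 members in each of the 17 comparisons and reversed 6 called values: BCL2 at 72 h against untreated MYCN-high cells (0.19) and, between the states, BCL2L1 in untreated cells (0.17) and at 3 days (0.45), MCL1 at 72 h (1.84) and at 3 days (0.88), and PMAIP1 at 8 days (0.15). The cause was not tested. DESeq2 called 2 members in MYCN-high cells at 8 days and 5 in MYCN-low cells at 3 days. For the differences of responses it called 1 at 72 h, 1 at 3 days, 4 at 8 days and 4 at 14 days. Without the filter these were 1 at 72 h, 5 at 8 days and 3 at 14 days, with 2 in MYCN-high cells at 8 days. DESeq2's size factors gave 0 at 8 days.

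With each library left out in turn, members called against untreated cells ranged in MYCN-high cells from 3 to 5 at 72 h, 1 to 1 at 3 days, 0 to 1 at 8 days and 0 to 0 at 14 days. In MYCN-low cells they ranged from 2 to 5, 1 to 3, 2 to 4 and 3 to 4 at these stages. Between the states the ranges were 0 to 3 untreated, 2 to 3 at 72 h, 2 to 3 at 3 days, 2 to 5 at 8 days and 4 to 5 at 14 days. For the differences of responses they were 0 to 1, 0 to 1, 0 to 4 and 0 to 3.

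The main fit did not treat the letters B and C as pairs. Over 36 pairs of groups their deviations correlated weakly, between -0.208 and 0.315 with a median of 0.108, and 22 pairs exceeded 0.1. What the letters share was not tested. With the replicate letter as a block, 163 of 170 values kept their side and 7 calls were added, giving 5 members in MYCN-low cells at 3 days, and 3 and 2 in the differences of responses at 8 and 14 days. The added calls were BCL2L11 in both differences (-1.36 and -1.71, edgeR adjusted p = 0.0464 and 0.0296), BCL2L1 in that at 8 days and in MYCN-low cells at 3 and 8 days, MCL1 in MYCN-low cells at 3 days and PMAIP1 between untreated states.

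The share of pro-apoptotic members without division by length was 26.5%, 36.4%, 35.8%, 31.9% and 33.8% in MYCN-high cells (untreated, 72 h, 3, 8 and 14 days) and 22.9%, 21.4%, 20.7%, 22.5% and 29.8% in MYCN-low cells. An alternative added after seeing the data left out 1 library of a pair. The share per length then became that of the library kept, as given above for B and C. These values are therefore no separate check.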
